A study of Rattus norvegicus with 8 samples.

Results

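The genes described here are 8 that serve the making or the work of red blood cells: Alas2, Fech, Hbb, Slc4a1, Epb42, Klf1, Car2 and Tfrc. They were followed in adrenal glands of newborn rats by taking every probe set (a group of short probes read as 1 value) whose platform annotation gives 1 of these symbols and no other. The rule found 9 probe sets for 6 of the 8 genes, out of 15866 probe sets that are not controls. Alas2, Hbb and Fech had 1 probe set each, Slc4a1, Car2 and Tfrc had more than 1, and Epb42 and Klf1 were not analysed here. A further 5 probe sets, annotated to more than 1 haemoglobin gene, are given separately and under no single gene's name. Hypoxic pups (group 1 of 2) had breathed 12% O2 with their dams from birth to postnatal day 7, and normoxic pups (the other group) were kept in room air beside ad libitum fed dams. Both groups were untreated in any other stated way, and no strain or allele is named in the labels. Glands were stripped of their capsule, frozen and pooled at 24 per sample, which gave 4 pools per group and 1 array with 1 colour per pool. Each value therefore averages many pups, blood left in the gland included, and animals cannot be told apart within it. Each pool is a sample of its own in the labels, and nothing more is said of how pools were made up, so a p-value here measures the spread between pools, which may in part be technical.

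A red cell precursor makes heme in a chain of enzymes that begins with 5-aminolevulinate synthase and ends with ferrochelatase, and it takes up the iron for it through the transferrin receptor. The heme is set into alpha and beta globin chains to form haemoglobin. In the membrane, the anion exchanger swaps bicarbonate for chloride, and carbonic anhydrase inside the cell supplies the bicarbonate. Low oxygen drives red cell formation through erythropoietin, and young red cells that enter the blood still carry messenger RNA for globins and for Alas2. The adrenal gland also has uses of its own for heme, since the cytochromes P450 that make steroids hold it.

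The array read haemoglobin transcripts among the brightest of all, and Hbb at 1367553_x_at ranked 9 from the top among the 15866 probe sets by its mean over the 8 arrays. Its identifier ends in _x_at, the mark for probes that can also match similar transcripts. The other 5 probe sets are each annotated to a pair of genes, and the DNA just before the start sites of each pair is nearly the same. These are the 170 bases before the start of each gene in RefSeq's rat assembly GRCr8, written 5′ to 3′, with capitals for 4 kinds of short motif known from globin promoters: GATA hexamers (GATA with A or T before it and A or G after it), CACCC and CCAAT, each on either strand, and TATAA on the strand shown. In Hbb the CCAAT on 1 strand abuts that on the other.
Hbb, chr1:167663722-167663891, minus strand: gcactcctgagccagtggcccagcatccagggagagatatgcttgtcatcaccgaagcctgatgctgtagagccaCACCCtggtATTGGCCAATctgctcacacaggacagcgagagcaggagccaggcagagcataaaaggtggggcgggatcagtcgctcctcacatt
Hbb-bs, chr1:167631631-167631800, minus strand: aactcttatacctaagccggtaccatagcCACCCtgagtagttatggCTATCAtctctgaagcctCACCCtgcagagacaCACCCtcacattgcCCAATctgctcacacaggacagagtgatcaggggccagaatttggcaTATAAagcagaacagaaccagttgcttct
Hbbl1, chr1:167650236-167650405, minus strand: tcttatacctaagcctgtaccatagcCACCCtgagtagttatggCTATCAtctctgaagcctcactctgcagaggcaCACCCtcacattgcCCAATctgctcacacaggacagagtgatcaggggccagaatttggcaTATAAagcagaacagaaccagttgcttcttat
Hba-a1, chr10:15842581-15842750, minus strand: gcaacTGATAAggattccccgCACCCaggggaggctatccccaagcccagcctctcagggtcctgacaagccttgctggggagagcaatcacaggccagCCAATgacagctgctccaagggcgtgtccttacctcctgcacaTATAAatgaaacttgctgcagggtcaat
Hba-a2, chr10:15829139-15829308, minus strand: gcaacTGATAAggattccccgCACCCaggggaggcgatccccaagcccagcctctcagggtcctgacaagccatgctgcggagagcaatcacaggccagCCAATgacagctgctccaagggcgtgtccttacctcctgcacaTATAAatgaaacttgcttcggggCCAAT
Hba-a3, chr10:15816944-15817113, minus strand: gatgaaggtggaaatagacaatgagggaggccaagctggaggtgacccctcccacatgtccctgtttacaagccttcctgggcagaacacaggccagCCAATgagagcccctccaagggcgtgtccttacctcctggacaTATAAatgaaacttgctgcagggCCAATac
Hbb-bs and Hbbl1 share 94.8% of the columns of a global alignment of these bases, and Hba-a1 and Hba-a2 share 96.5%. Hbb, which has a probe set in its own name, shares 64.8% with Hbb-bs and 66.5% with Hbbl1. Hba-a3, an alpha-type gene that also has its own probe set, shares 66.7% with Hba-a1. A CCAAT match stands in all 6 windows and in 25.9% of the 33469 windows of this length before rat genes. CACCC matches stand in 5 of the 6 and in 38.5% of all windows, GATA hexamers in 4 of the 6 and in 18.7%, and TATAA in 5 of the 6 and in 11.9%. A match is a description of the letters and not a site shown to be used.

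The question was whether glands of hypoxic pups hold more red cell transcripts than glands of normoxic pups. On balance the member genes read higher in hypoxic pools, but no member differed by enough to pass the test. All 6 measured genes lay above 0 in their log2 difference (hypoxic minus normoxic, on log2 of intensity plus 16) at their brightest probe set. Their median was 0.27, where the median over all tested probe sets was -0.02 and 45.2% of them lay above 0. Taken in each hypoxic pool against the normoxic means, the member median had an SD of 0.24 between pools. The members were chosen with earlier results of these data known, so this contrast is a description and not independent support. All 9 member probe sets were bright enough to be tested, and 7 were higher and 2 lower. In limma with Benjamini-Hochberg adjustment over 11106 probe sets, 0 of the 9 passed an adjusted p of 0.05, where 0.180% of all tested probe sets did (0.117% higher and 0.0630% lower in hypoxic pools). An unadjusted p under 0.05 was found for 2 of the 9, both higher, beside 8.64% of all tested (4.16% higher and 4.48% lower). The hypoxic pools did not lie wholly above or below the normoxic pools at any of the 9 (0 of 9, beside 5.39% of all tested and 2.76% with the hypoxic pools above). These are pooled glands, stripped of their capsule and with their cells mixed, so more red cells, younger red cells and more RNA per cell cannot be told apart.

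**Figure D1:**
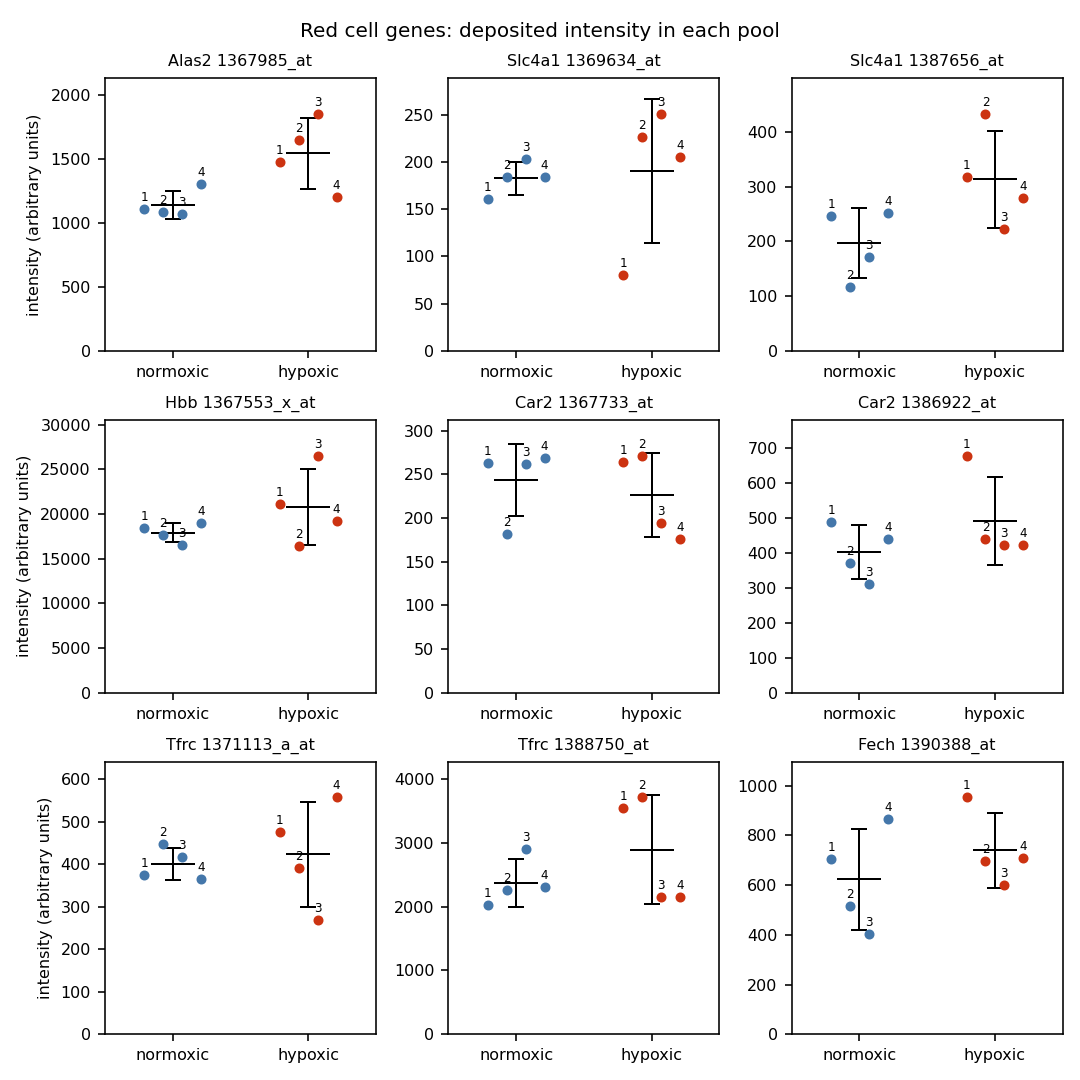
Deposited intensity (arbitrary units, axis from 0) of the 9 member probe sets in each of the 8 pools; numbered points are pools, horizontal marks are group means and bars are SDs over 4 pools. The 2 groups overlap in every panel, by a single pool on each side for Alas2, where hypoxic pool 4 at 1197.6 lies below normoxic pool 4 at 1297.9.

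Heme synthesis begins with Alas2, the form of 5-aminolevulinate synthase made in red cell precursors. Its intensity in normoxic pools 1 to 4 was 1107.4, 1082.3, 1067.2 and 1297.9. In hypoxic pools 1 to 4 it was 1472.9, 1646.9, 1849.5 and 1197.6. Hypoxic pools 1, 2 and 3 lay above every normoxic pool, and hypoxic pool 4 lay within the normoxic range. The group means were 1139 ± 107 and 1542 ± 276 (SD, n = 4 pools per group). The log2 difference was 0.42, its standard error 0.13 and its 95% interval 0.13 to 0.70 (limma, adjusted p = 0.343). Among all tested probe sets 1.64% had a log2 difference at least as high. The difference ran from 0.33 without hypoxic pool 3 to 0.53 without hypoxic pool 4, and its adjusted p ran from 0.233 to 0.672 over all alternatives tried.

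Alas1, the form of the same enzyme made in all tissues, is no member but stands beside Alas2 in the list of heme synthesis genes, and it was the gene of that list with the lowest p. It read 2789.3, 2457.2, 2661.5 and 2747.7 in normoxic pools 1 to 4. Hypoxic pools 1 to 4 read 3694.2, 3899.5, 3008.5 and 3105.5. Every hypoxic pool lay above every normoxic pool, for a log2 difference of 0.35 (standard error 0.10, limma adjusted p = 0.304), which did not pass. Of the adrenal cortex markers, several of them heme enzymes, 8 of 8 were measured, their median log2 difference was 0.02, and their summed intensity ran from 89739 to 122992 in normoxic and from 89169.6 to 131671 in hypoxic pools.

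Fech encodes ferrochelatase, which sets iron into the ring at the last step. Its intensity was 705.8, 517.6, 404.9 and 866.6 in normoxic pools 1 to 4, and 953.4, 698.0, 602.3 and 707.6 in hypoxic pools 1 to 4. The normoxic pools spread more widely than the groups differ, with normoxic pools 2 and 3 lowest of all 8. The log2 difference was 0.28 with a 95% interval from -0.18 to 0.74 (limma, adjusted p = 0.770). It was 0.10 without normoxic pool 3, 0.15 when hypoxic pool 1 was left out, 0.45 without normoxic pool 4 (unadjusted p 0.0412) and 0.12 with the beta-actin ratio, described further on, in the fit. The steps between the first and the last did not share the direction. Alad, the second enzyme, had a log2 difference of -0.05, Urod, which trims the side chains of the ring, -0.01, and Ppox, which oxidises the ring, -0.15. Of the 12 measured genes in the heme synthesis list 5 were higher and 7 lower, 0 passed the adjusted test, and the only 2 with an unadjusted p under 0.05 were Alas1 and Alas2.

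**Figure D2:**
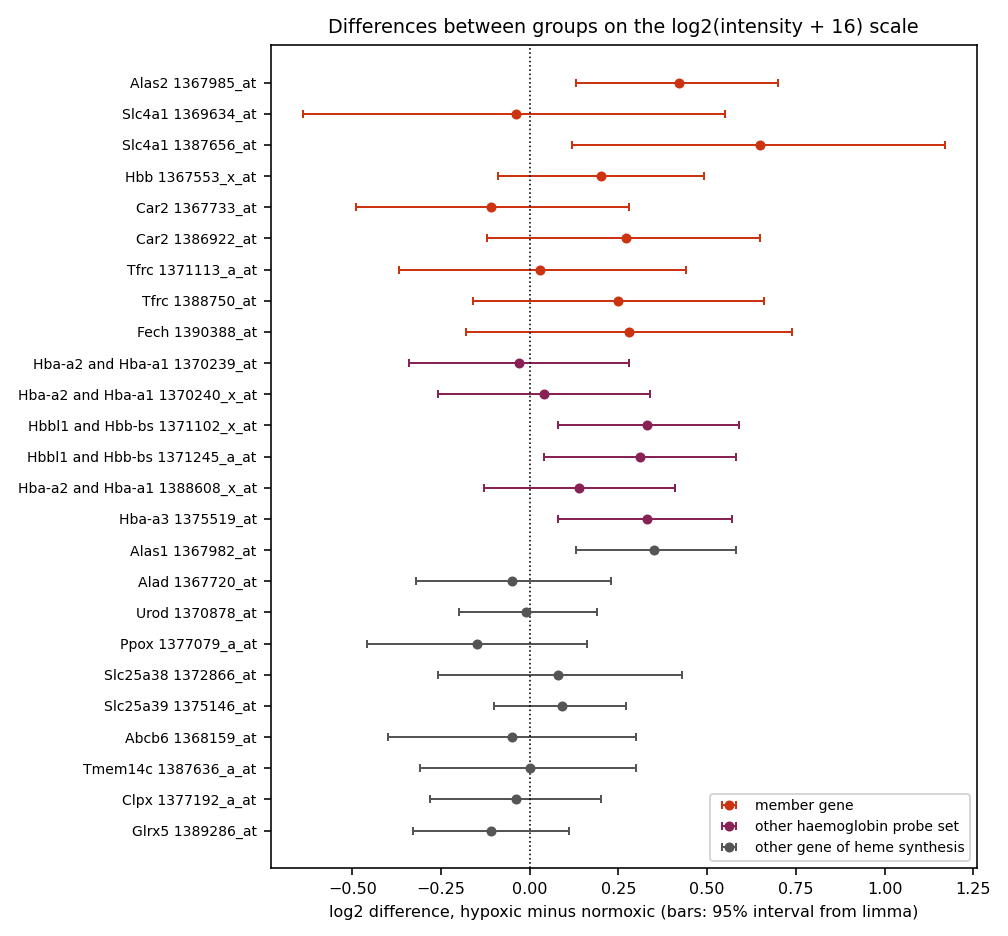
Log2 differences, hypoxic minus normoxic, with 95% intervals from limma for the 9 member probe sets (red), the other haemoglobin probe sets (purple) and the other measured genes of heme synthesis (grey). Alas2 at 0.42 and Alas1 at 0.35 stand to the right of 0 as does Fech at 0.28 with a wider interval, while Alad at -0.05, Urod at -0.01 and Ppox at -0.15 lie at or to the left of it, and the 2 Slc4a1 probe sets differ from each other.

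Haemoglobin chains were the brightest of the red cell transcripts, and no probe set for a beta or an alpha chain passed the test. Hbb read 18431.1, 17636.6, 16527.0 and 19040.1 in normoxic pools 1 to 4. It read 21097.6, 16445.3, 26563.2 and 19213.5 in hypoxic pools 1 to 4. Hypoxic pools held both the highest value (pool 3) and the lowest (pool 2), and the groups overlapped. The log2 difference was 0.20 with a 95% interval from -0.09 to 0.49 (limma, adjusted p = 0.732), and it was 0.07 without hypoxic pool 3 and 0.30 without hypoxic pool 2, where the unadjusted p was 0.0228.

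The probe sets annotated to Hbbl1 and Hbb-bs, the beta-type genes with nearly the same promoter bases, had larger log2 differences than Hbb. At 1371102_x_at the normoxic pools 1 to 4 read 5954.6, 5267.6, 4293.5 and 5853.3, and the hypoxic pools 6864.1, 5937.5, 7309.2 and 6673.2. At 1371245_a_at the normoxic pools 1 to 4 read 9708.2, 7714.9, 7604.2 and 9691.5, and the hypoxic pools 12367.1, 9232.3, 11363.3 and 10128.3. At both, hypoxic pools 1, 3 and 4 lay above every normoxic pool and hypoxic pool 2 did not. The log2 differences were 0.33 (95% interval 0.08 to 0.59) and 0.31 (0.04 to 0.58), with limma adjusted p of 0.419 and 0.502. Hba-a3, which read 2750.0 ± 398 in normoxic and 3439 ± 297 in hypoxic pools (n = 4 per group), had a log2 difference of 0.33 as well (limma, adjusted p = 0.407), and normoxic pool 1, at 3340.7, lay among the hypoxic values.

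The 3 probe sets shared by Hba-a1 and Hba-a2, the main alpha chain genes, had log2 differences nearer 0. At 1370239_at the normoxic pools 1 to 4 read 18049.3, 22738.8, 22336.6 and 20745.4, and the hypoxic pools 21365.5, 15550.8, 25202.0 and 20879.6. The log2 difference there was -0.03 (95% interval -0.34 to 0.28), and it turned to 0.10 without hypoxic pool 2, to 0.01 without normoxic pool 2, to 0.002 without normoxic pool 3 and to 0.02 once the fit took in each pool's beta-actin ratio, a sign of RNA integrity given further on. The other 2 differed by 0.04 and 0.14, the first turning to -0.04 without normoxic pool 1 and to -0.05 without hypoxic pool 3. At all 3, hypoxic pool 3 was the highest and hypoxic pool 2 the lowest of the 8 pools. Of the 5 shared probe sets 4 were higher in hypoxic pools, beside 45.2% of all tested probe sets. The adjusted test was passed by 0 of the 5 (0.180% of all tested), and 2 had an unadjusted p under 0.05 (8.64%). Both of these are annotated to Hbbl1 and Hbb-bs, so they are not separate readings.

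**Figure D3:**
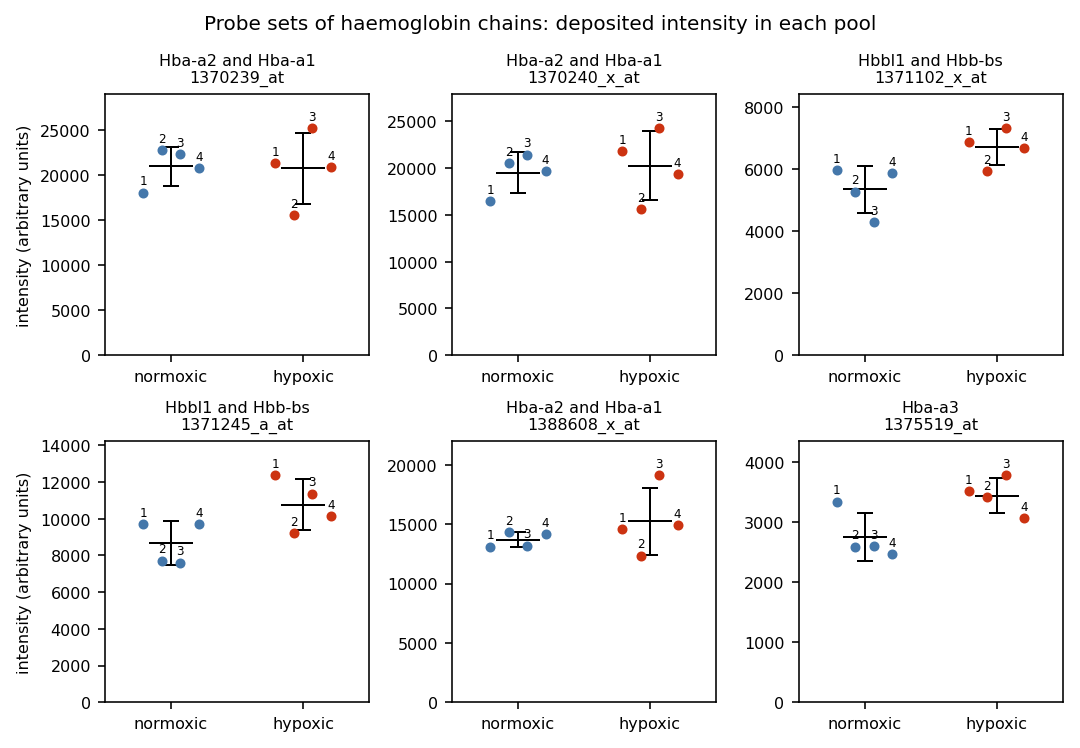
Deposited intensity (arbitrary units, axis from 0) of the 5 shared haemoglobin probe sets and of Hba-a3 in each pool, with group means and SDs over 4 pools. The hypoxic points sit higher at the probe sets of Hbbl1 and Hbb-bs and of Hba-a3, while at the Hba-a2 and Hba-a1 probe sets hypoxic pools 3 and 2 enclose all the others.

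Whether beta chains differed between groups by more than alpha chains was tested directly, in a comparison chosen after these values were seen. The mean log2 level of the 3 beta chain probe sets minus that of the 3 alpha chain probe sets averaged -0.92 ± 0.25 over the 4 normoxic pools and -0.69 ± 0.10 over the 4 hypoxic ones. The difference of 0.23 did not pass (exact permutation test over pools, two-sided, p = 0.171, where the smallest possible is 0.0286). By pool the normoxic values were -0.62, -1.07, -1.18 and -0.81, and the hypoxic values -0.64, -0.58, -0.80 and -0.74. Normoxic pool 1 lay among the hypoxic pools. With 1 pool left out at a time the difference ran from 0.14 to 0.33, the highest being without normoxic pool 1. There the exact permutation p was 0.0286, the smallest possible with 3 pools against 4. Without any other pool it was from 0.171 to 0.343, and the difference was lowest, at 0.14, without normoxic pool 3. As the comparison was chosen from these same values, none of these p-values is independent support. Hba-a3, an alpha-type gene with a probe set of its own, was not on the alpha side of this comparison. How far such bright signals still follow the amount of RNA was not tested.

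The embryonic and fetal-type chains were close to background. Hbz read 15.7 ± 1.66 in normoxic and 15.5 ± 1.54 in hypoxic pools, Hbe2 13.5 ± 4.07 and 14.8 ± 5.03, and Hbg1 9.62 ± 1.31 and 11.2 ± 1.29 (n = 4 each). Probe sets for bacterial genes, which match no rat transcript, had a 95th percentile of 46.6. Hbe1 read between 13.6 and 60.4. Ahsp, the chaperone of free alpha chains, was at 140.5 in hypoxic pool 1 and between 10.8 and 73.5 in the others. Among other globins, Ngb, the neuroglobin of nerve cells, read 155 ± 17.0 in normoxic and 231 ± 46.6 in hypoxic pools (log2 0.52, limma adjusted p = 0.347), with a dimmer probe set at 0.36, and Cygb differed by 0.06.

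The membrane gave a divided answer, since the probe sets of Slc4a1, the anion exchanger known as band 3, disagreed. At 1387656_at it read 245.7, 116.9, 171.7 and 251.9 in normoxic pools 1 to 4, and 316.7, 432.9, 223.3 and 278.7 in hypoxic pools 1 to 4. Hypoxic pools 1, 2 and 4 lay above every normoxic pool. The log2 difference of 0.65 was the largest among the members, with a standard error of 0.24 and a 95% interval from 0.12 to 1.17 (limma, adjusted p = 0.469). It fell to 0.44 without normoxic pool 2, where the unadjusted p was 0.0670, and to 0.49 without hypoxic pool 2, where it was 0.0715. At 1369634_at the same gene read 160.2, 183.8, 202.9 and 184.2 in normoxic pools 1 to 4, and 79.8, 226.8, 250.9 and 204.8 in hypoxic pools 1 to 4. Hypoxic pools 2, 3 and 4 lay above every normoxic pool, and hypoxic pool 1 lay far below them all. The log2 difference was -0.04 (95% interval -0.64 to 0.55), and it turned to 0.29 without hypoxic pool 1 (limma, adjusted p = 0.463), to 0.01 without normoxic pool 3 and to 0.0044 with quantile normalization.

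Hypoxic pool 1 also had the lowest ratio of 5′ to 3′ signal for beta-actin, a sign of RNA integrity, at 0.249, where the other 7 pools ran from 0.413 to 0.744. Normoxic pools averaged a ratio of 0.607 ± 0.143 and hypoxic ones 0.495 ± 0.190 (SD, n = 4, two-sided exact permutation p = 0.4). For Gapdh the averages were 0.664 ± 0.0646 and 0.609 ± 0.0423 (two-sided exact permutation p = 0.2). When the beta-actin ratio entered the fit, the log2 differences of the 2 Slc4a1 probe sets were 0.55 (1387656_at) and 0.26 (1369634_at), both above 0, and that of Alas2 was 0.46. When the Gapdh ratio entered instead, Alas2 differed by 0.34, Slc4a1 at 1387656_at by 0.84 and Slc4a1 at 1369634_at by -0.10.

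Of 19 genes of the red cell membrane and its skeleton with a probe set, 13 were bright enough to compare, Slc4a1 included. Among them 10 were higher and 3 lower, with a median log2 difference of 0.07, 0 past the adjusted test and 1, Slc4a1, with an unadjusted p under 0.05. Rhd, a Rhesus protein gene, read 188 ± 12.6 in normoxic and 219 ± 49.6 in hypoxic pools (log2 0.18, limma adjusted p = 0.828). Its log2 difference was 0.35 without hypoxic pool 4, where the unadjusted p was 0.0242. It was 0.10 or 0.11 when hypoxic pool 2 or 3 was left out and 0.07 with the Gapdh ratio in the fit. Epb41, the protein that ties spectrin to the membrane, had a log2 difference of 0.01, and Gypc, a glycophorin gene, one of -0.29 (limma adjusted p over 0.05 for each). Sptb, Rhag and Ank1, which encode beta spectrin, a Rhesus-associated protein and ankyrin, had means of at most 49.1 in either group, below the brightness filter of 95.2.

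The markers that define red cell precursors were mostly too dim to follow. Of 17 defining markers with a probe set, 5 were bright enough to test (Alas2, Slc4a1, Hbb, Rhd and Epor) and 12 were not; none of the 17 was at 0 in every pool. Each of the 5 read higher in hypoxic pools at its brightest probe set (median log2 0.20), and 0 passed the adjusted test. Slc4a1 at its dimmer probe set did not (-0.04). The 12 dim genes read between 2.9 and 140.5 in single pools, and 4 of them stayed below the bacterial 95th percentile in every pool. With no filter their directions were mixed. Sptb (log2 -0.46), Rhag (-0.31), Gata1 (-0.09), Kel (-0.06) and Hbz (-0.01) were lower, and Ahsp was at 0.00. Car1 (0.47), Hemgn (0.39), Ank1 (0.21), Hbe1 (0.17), Hbg1 (0.09) and Hbe2 (0.06) were higher. Gata1, the transcription factor that switches on the red cell program, read 78.2 ± 13.4 in normoxic and 73.8 ± 19.8 in hypoxic pools (n = 4 per group). Hemgn, a nuclear protein of blood-forming cells, read 57.9 to 74.5 in normoxic and 79.4 to 106.5 in hypoxic pools, with no overlap (log2 0.39, adjusted p = 0.645 in limma with no filter). The receptor gene Epor had a log2 difference of 0.10 and, on a dimmer probe set, 0.11, and Epo, the hormone gene, read 15.7 and 20.6 on average.

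**Figure D4:**
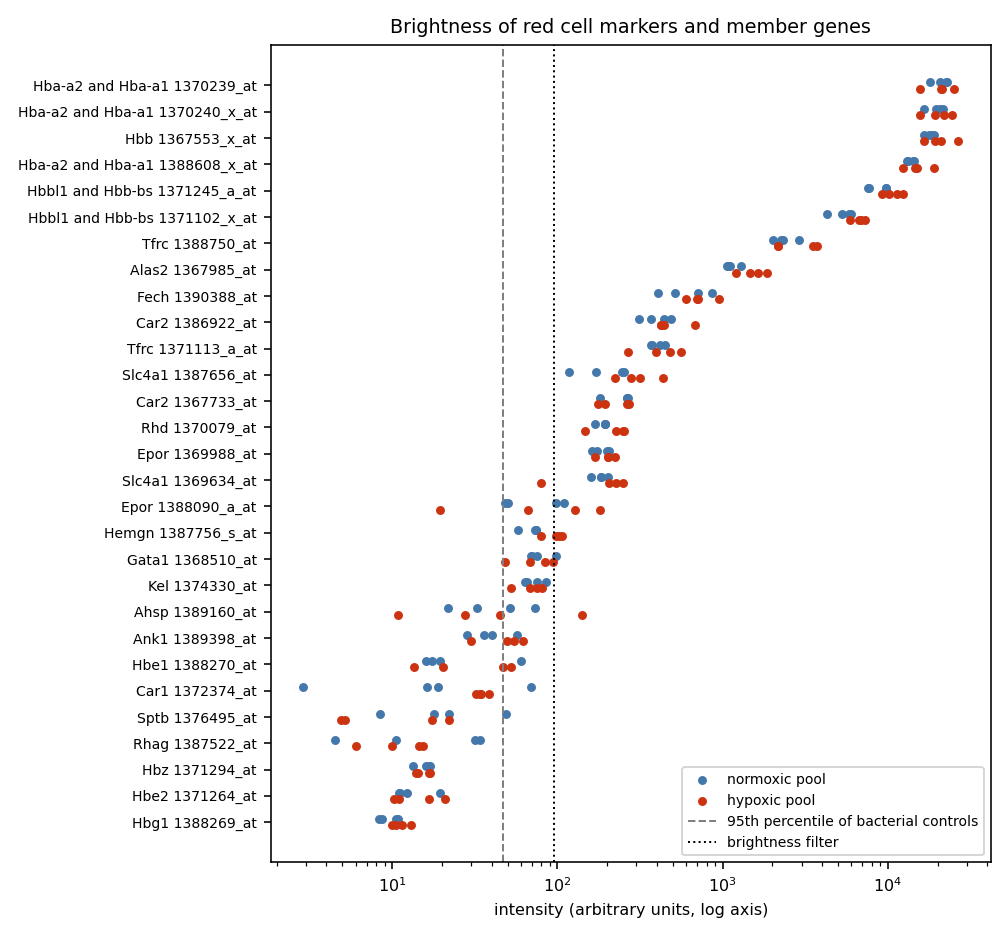
Deposited intensity (log axis, arbitrary units) of the members, the shared haemoglobin probe sets and the red cell defining markers in each normoxic (blue) and hypoxic (red) pool, ordered by mean. Haemoglobin chains lie near the top of the scale, and most pools of Gata1, Ahsp, Rhag and the embryonic chains lie below the dotted line, the brightness filter of 95.2, with Ahsp at 140.5 in hypoxic pool 1 and Gata1 at 98.0 in normoxic pool 4 above it. The dashed line is the bacterial 95th percentile of 46.6.

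Among transcription factors and signals of red cell formation, 10 genes were measured, 5 higher and 5 lower, with 0 past the adjusted test. Ldb1, a partner of Gata1 and Klf1 complexes that many tissues make, was the 1 gene with an unadjusted p under 0.05, and it was lower, at 1108 ± 196 in normoxic and 832 ± 107 in hypoxic pools (log2 -0.40, limma adjusted p = 0.418).

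Car2, the fast carbonic anhydrase of red cells and of many other tissues, also gave probe sets that disagreed. At 1386922_at it read 487.3, 369.0, 310.9 and 439.8 in normoxic pools 1 to 4, and 677.5, 439.1, 422.1 and 421.6 in hypoxic pools 1 to 4. Hypoxic pool 1 stood far above the other hypoxic pools, which lay within the normoxic range. The log2 difference was 0.27 (95% interval -0.12 to 0.65, limma adjusted p = 0.721), and 0.11 without hypoxic pool 1. At 1367733_at it read 262.6, 181.7, 262.3 and 268.6 in normoxic pools 1 to 4, and 263.9, 271.5, 194.8 and 175.5 in hypoxic pools 1 to 4. Each group held both high and low pools, and the log2 difference was -0.11 (95% interval -0.49 to 0.28, limma adjusted p = 0.905), and it ran from -0.23 without normoxic pool 2 to -0.00032 without hypoxic pool 4. Car1, the carbonic anhydrase most typical of red cells, read 2.9 to 69.2 in normoxic and 32.1 to 38.3 in hypoxic pools, below the filter. Of the 4 measured carbonic anhydrase genes 1 was higher and 3 lower, with 0 past either threshold. Car3, a form of muscle and fat, was the brightest at 6398 and 5740 on average (log2 -0.22), and 8 of 8 measured adipose markers also had a lower mean in hypoxic pools, with summed intensities from 4987 to 13959.9 in normoxic and from 3859.8 to 10054 in hypoxic pools, and with Ucp1, the heat-making protein of brown fat, as the 1 gene with an unadjusted p under 0.05 (log2 -1.46, limma adjusted p = 0.502). Ucp1 was high in normoxic pools 1 and 4, at 1675.2 and 1820.3, while normoxic pools 2 and 3, at 388.8 and 381.2, lay within the hypoxic range of 92.3 to 510.7. The part of the adipose markers in the Car3 value was not tested.

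Tfrc encodes the transferrin receptor, which every dividing cell uses and red cell precursors use most. At 1388750_at it read 2021.7, 2261.7, 2902.8 and 2312.3 in normoxic pools 1 to 4, and 3544.7, 3710.4, 2153.6 and 2153.0 in hypoxic pools 1 to 4. The hypoxic pools fell into a high pair (1 and 2) and a pair within the normoxic range (3 and 4). The log2 difference was 0.25 (95% interval -0.16 to 0.66, limma adjusted p = 0.772), and leaving out hypoxic pool 2 gave 0.11, hypoxic pool 1 0.13, and hypoxic pool 3 or 4 0.37. At the dimmer 1371113_a_at the hypoxic pools read 476.9, 392.3, 269.0 and 557.6, the normoxic pools lay between 366.1 and 446.6, and the log2 difference was 0.03. This small difference turned in sign without hypoxic pool 4 (-0.11), without hypoxic pool 1 (-0.04), without normoxic pool 4 (-0.01) and with the beta-actin ratio in the fit (-0.06). Of 15 measured genes for iron uptake and storage 7 were higher and 8 lower, with a median log2 difference of -0.01, and 0 had an unadjusted p under 0.05. Hamp, the iron hormone hepcidin, had a log2 difference of -0.35, and Slc40a1, the iron exporter, one of -0.26 (limma adjusted p over 0.05 for both).

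Genes that clear heme and haemoglobin, and genes of the maturing red cell, were mixed as well. Hpx, the heme-binding plasma protein hemopexin, read 117.0, 151.3, 201.0 and 150.0 in normoxic pools 1 to 4, and 235.4, 212.1, 285.3 and 235.5 in hypoxic pools 1 to 4. Every hypoxic pool lay above every normoxic pool, for a log2 difference of 0.61 (standard error 0.17, limma adjusted p = 0.247). It was the 1 gene of 6 in its list with an unadjusted p under 0.05, and Hmox1, the heme-splitting enzyme gene, differed by 0.13. In the list of red cell metabolism 8 genes were higher and 8 lower, and Ube2o, a ubiquitin enzyme that clears proteins from maturing red cells, was the 1 gene with an unadjusted p under 0.05, at 455 ± 135 and 681 ± 122 (log2 0.60, limma adjusted p = 0.418). Bpgm, which makes the phosphate that loosens oxygen from haemoglobin, differed by -0.12.

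The members did not rank the pools in 1 common order. Over the 9 member and 5 shared haemoglobin probe sets, the highest of the 8 pools was always hypoxic: pool 3 at 7, pools 1 and 2 at 3 each and pool 4 at 1. The lowest was normoxic pool 3 at 5 probe sets and hypoxic pool 2 at 4. Hypoxic pools 1, 3 and 4 and normoxic pools 1 and 2 were each lowest at 1. So hypoxic pools held low extremes as well as high ones. Hypoxic pool 2 was thus highest for Slc4a1 at 1387656_at and for Tfrc at 1388750_at, and lowest for Hbb. Several of these probe sets read the same gene or similar chains, so they are not separate readings. How often the highest pool was hypoxic over all tested probe sets was not counted. By deviations from the group means over the 8 pools, the genes most like Alas2 among 8010 compared were Abr (Pearson r = 0.984), Scaf11 (0.958), Sbsn (0.946), Zrsr2-ps1 (0.937) and Orc6 (0.936), given as a description with no test, since so many genes were compared over few pools.

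Markers of other cell types that such a gland can hold were read in the same way. Of 11 measured leukocyte markers 5 were higher and 6 lower (log2 from -0.42 to 0.60, median -0.13), with summed intensities from 4885 to 6035 in normoxic and from 4411 to 5275 in hypoxic pools, and 3 had an unadjusted p under 0.05, all lower: the complement genes of macrophages C1qa (log2 -0.42), C1qb (-0.38) and C1qc (-0.34). The 4 measured platelet markers had log2 differences from -0.14 to just under 0, with summed intensities from 769.7 to 826 and from 662 to 883. The 11 measured endothelial markers had a median of -0.01, with summed intensities from 6699 to 7758 and from 6606 to 7623, and Pecam1 was the 1 gene with an unadjusted p under 0.05 (log2 -0.53, limma adjusted p = 0.238). The summed intensity of the 5 tested red cell markers, most of it Hbb, ran from 18158 to 20990.0 in normoxic and from 18979.7 to 29088 in hypoxic pools. No marker of these lists was at 0 in every pool. Chromaffin markers, which mark the catecholamine cells of the medulla, were higher in hypoxic pools in 9 of 9 (median log2 0.25), with summed intensities from 33001 to 44241 and from 38109 to 53102. Slc18a2, a vesicle transporter gene, passed the adjusted test at 1369131_at (log2 0.98, limma adjusted p = 0.0318). Leaving out any 1 pool but hypoxic pool 1 ended this call (limma adjusted p from 0.0524 to 0.118). So did no filter (limma adjusted p = 0.059), no variance trend (0.077) and the Gapdh ratio in the fit (0.111). Its other probe set, 1369132_at, differed by 0.61 and did not pass (limma adjusted p = 0.399). Dbh, Ddc, Chga and Slc18a1 were higher with an unadjusted p under 0.05 at their brightest probe sets. The share of all tested probe sets that were so was 4.16%. At its dimmer probe set, 1375317_at, Ddc differed by -0.06. The part of these cells in the red cell values was not tested. With 4 arrays per group, their number limits the precision of every value here.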

How the data were processed

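Per the labels, the deposited values are intensity readings of probe sets, linear and in arbitrary units, with 1 column for each pool. The authors had brought all arrays to 1 level: the trimmed mean is 500.1 on all 8, so a change shared by most transcripts does not show. The software that summarised the probes was not given in the sources used here. Gene symbols are those of the platform annotation and can be out of date; 12783 probe sets have 1 symbol, 312 several and 2771 none, and 12754 of the first kind matched a gene ID in RefSeq's table of GRCr8.

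Intensities were floored at 1 and taken to log2 after adding 16, which understates changes of dim probe sets. Without the 57 control probe sets and those whose mean fell under the 30th percentile (95.2), 11106 were left. They were fitted in limma 3.58.1 (R 4.3.3), hypoxic minus normoxic, with a variance trend, two-sided tests, Benjamini-Hochberg adjustment over all of them and a threshold of 0.05; the steps were tested on simulated data. Tables and plots came from Python 3.11.15 (pandas 2.3.3, matplotlib 3.10.9). A gene with several probe sets counts at its brightest. The text names all members, shared haemoglobin probe sets, list genes with an unadjusted p under 0.05 and the 5 genes most like Alas2; other list genes were named after their values were seen. The members, lists and rules were chosen with earlier results of these data known. Promoter bases are RefSeq's, all 6 matched by symbol. Alternatives were other filters and offsets, quantile normalization, no variance trend, either RNA ratio as a covariate, a replicate block and each pool left out.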

Additional observations from a re-analysis of the deposited data

Results flagged for a closer look

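In 4 of 44 groups of 4 pools looked at, 1 pool stood far from the other 3; chance alone gives such a gap in about 1 group in 20. Car2 at 1367733_at was 181.7 in normoxic pool 2, where the other normoxic pools read 262.3 to 268.6. Car2 at 1386922_at was 677.5 in hypoxic pool 1, where the others read 421.6 to 439.1. Hba-a3 was 3340.7 in normoxic pool 1, where the others read 2471.7 to 2598.1. Rhd was 169.3 in normoxic pool 1, where the others read 193.6 to 194.9.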

How the results depend on the processing

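No member tested passed the adjusted test under any of the settings tried, and the median log2 difference over the member genes ran from 0.17 to 0.38 with 1 pool left out, was 0.19 and 0.33 with the beta-actin and Gapdh ratios as covariates, and stayed above 0 throughout. Over all tested probe sets the 20 calls became 0 with no filter, 0 with no variance trend, 0 with the Gapdh ratio and 37 with the beta-actin ratio, and ran from 0 to 31 with 1 pool left out: 31 without hypoxic pool 1, and at most 2 without any other pool. The count of members with an unadjusted p under 0.05 ran from 1 to 3, and that of members whose groups do not overlap from 0 to 1, with 1 pool left out. The beta minus alpha difference ran from 0.14 to 0.33. Among single probe sets, Slc4a1 at 1369634_at turned to 0.0044 with quantile normalization, 0.26 with the beta-actin ratio and between -0.20 and 0.29 with 1 pool left out. Tfrc at 1371113_a_at turned to -0.06 with the beta-actin ratio (-0.11 to 0.23 with 1 pool left out), and the Hba-a2 and Hba-a1 probe set 1370239_at to 0.02 (-0.13 to 0.10). Their neighbour 1370240_x_at ran from -0.05 to 0.16. The causes were not tested. With the filter at the 50th percentile, 2 dim member probe sets (Slc4a1 at 1369634_at and Car2 at 1367733_at) were no longer tested, and signal over background limits every value near or below the filter.

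Replicate numbers are shared between the groups, but same-numbered pools did not all deviate together (correlations 0.323, 0.0026, 0.186 and -0.0434), so they were not treated as pairs. Between pools of different numbers the correlations ran from -0.311 to 0.163, so 0.323 and 0.186 lay above all of these. With the replicate block, 0 of 9 members passed and the median log2 difference over member genes was 0.27. The block lowered the unadjusted limma p of Ube2o from 0.0142 to 0.00151 and that of Ldb1 from 0.0143 to 0.00274. Neither passed the adjusted test (limma adjusted p = 0.173 and 0.227). For Alas2 it raised the unadjusted limma p from 0.00768 to 0.013.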
